A study of Mus musculus with 8 samples.

Results

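The annexins are a family of calcium-dependent, phospholipid-binding proteins, and their transcripts were followed here in the liver of Pemt-/- and Pemt+/+ mice. The members were the 9 genes Anxa1, Anxa2, Anxa3, Anxa4, Anxa5, Anxa6, Anxa7, Anxa11 and Anxa13, chosen by symbol. On the array, 18 of the 45037 non-control probe sets were annotated to exactly 1 of these genes, and they covered 8 of the 9 genes. The remaining gene, Anxa11, had only a probe set that the annotation assigned to 3 genes, so no level of Anxa11 is given.

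Pemt encodes phosphatidylethanolamine N-methyltransferase, the enzyme that methylates phosphatidylethanolamine to phosphatidylcholine, and it is deleted in the whole body of Pemt-/- mice. According to the study's methods the mice were male. Both genotypes received a high fat-high sucrose (HFHS) diet, so no array shows chow-fed liver, and livers were profiled on Affymetrix arrays after 1, 2, 3 or 4 weeks, with 1 array for each genotype and week. That gives 4 Pemt-/- arrays and 4 Pemt+/+ arrays. The labels do not say whether an array holds 1 mouse or several. The study's methods give n = 4 mice per genotype for this diet course, without saying how mice were assigned to weeks or arrays. The age of the mice at sampling is not given in the sources used here.

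Each annexin carries a conserved core of repeats that binds acidic phospholipids in the presence of calcium, and a variable amino-terminal tail that binds partner proteins. Through the core, annexins attach to the inner face of the plasma membrane and to vesicles, where they take part in exocytosis, endocytosis, membrane organisation and the resealing of torn membranes. Some members, among them the Anxa1 and Anxa5 proteins, also act outside cells.

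All values are intensities of probe sets, which the authors had scaled so that the trimmed mean of each array was 500. The Pemt probe set, which checks the labels, read 237, 203, 201 and 255 in Pemt-/- livers at weeks 1 to 4, against 5491, 4989, 5645 and 6045 in Pemt+/+ livers, and was 23.2-fold lower in Pemt-/- livers (adjusted p = 5.00e-07, limma). The sources used here do not place that probe set inside or outside the deletion. Median intensity lay between 73.8 and 81.3 over the 8 arrays. Over the whole array, 27022 probe sets were bright enough to be tested (mean intensity above about 45.5). Of these, 10.3% were higher in Pemt-/- livers and 5.86% were lower at an adjusted p under 0.05.

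The upstream sequence of Anxa2, Anxa1 and Anxa5 is shown first, because these were 3 of the 4 annexin genes that differed most between the genotypes. Each line gives the 250 bases before the gene start, 5' to 3' on the gene's strand, from RefSeq (GRCm38.p6). Capitals mark every match to 1 of 3 motifs, searched on both strands. TATAAA is the core promoter element read by the basal transcription machinery, GGGCGG is the motif of Sp1, and TGANTCA is the motif of the Fos and Jun factors. These motifs do not overlap each other in the lines shown.
Anxa2, chr9:69453433-69453682, plus strand: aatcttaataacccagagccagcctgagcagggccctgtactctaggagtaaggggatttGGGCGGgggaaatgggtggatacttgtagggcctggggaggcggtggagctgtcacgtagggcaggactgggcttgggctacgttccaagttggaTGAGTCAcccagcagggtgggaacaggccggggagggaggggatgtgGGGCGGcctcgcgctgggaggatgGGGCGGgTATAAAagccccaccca
Anxa1, chr19:20390672-20390921, minus strand: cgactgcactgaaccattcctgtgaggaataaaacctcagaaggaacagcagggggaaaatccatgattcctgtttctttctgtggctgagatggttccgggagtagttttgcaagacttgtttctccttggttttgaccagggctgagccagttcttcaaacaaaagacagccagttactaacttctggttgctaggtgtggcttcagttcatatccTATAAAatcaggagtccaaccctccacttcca
Anxa5, chr3:36475888-36476137, minus strand: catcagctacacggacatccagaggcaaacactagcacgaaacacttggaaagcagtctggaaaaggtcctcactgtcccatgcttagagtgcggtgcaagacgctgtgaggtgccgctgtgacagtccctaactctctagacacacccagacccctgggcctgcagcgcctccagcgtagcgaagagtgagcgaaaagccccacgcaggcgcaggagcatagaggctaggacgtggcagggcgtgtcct

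The Anxa2 window held 1 TATAAA match starting 17 bases before the gene start, 3 GGGCGG matches starting 190, 48 and 24 bases before it, and 1 TGANTCA match starting 95 bases before it. The Anxa1 window held 1 TATAAA match starting 32 bases before the gene start and neither of the other motifs. No match to any of the 3 motifs was found in the Anxa5 window. TATAAA occurs in 12.4% of the 32851 mouse promoter windows of the same length, GGGCGG in 32.7% and TGANTCA in 6.75%, and 34 windows (0.103%) hold all 3, as that of Anxa2 does. The GC content was 62.4% for Anxa2, 46.0% for Anxa1 and 58.8% for Anxa5, beside a median of 52.4% over all windows. The genes thus share no single arrangement of these motifs. In the table of promoters, 6 of the 9 annexin genes had an entry; Anxa3, Anxa6 and Anxa13 did not. A match is a description of letters and shows no binding.

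The main comparison asked which annexins differed between the genotypes over the 4 weeks. Anxa1, Anxa2, Anxa3 and Anxa5 were 2.84-fold to 7.84-fold higher in Pemt-/- livers, with no overlap between the genotypes, and Anxa4 and Anxa7 were higher by 1.55-fold and 1.31-fold. Anxa6 and Anxa13 did not pass the test, and no annexin was lower. Taking each gene by its probe set of the highest mean, 6 of 8 genes were higher. The count of 6 was 4 without week 3 or week 4, with eBayes without the trend and with the methods' t-test. It was also 4 with centring on the median of the tested probe sets, and 5 with no replicate block. The genes lost were Anxa4 and Anxa7, and with no replicate block Anxa7 alone. Of the 16 annexin probe sets bright enough to be tested, 8 were higher and 0 were lower, beside 10.3% higher and 5.86% lower among all 27022 probe sets. The median log2 difference over the 8 genes was 1.07, against 0.02 over all probe sets tested.

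**Figure D1:**
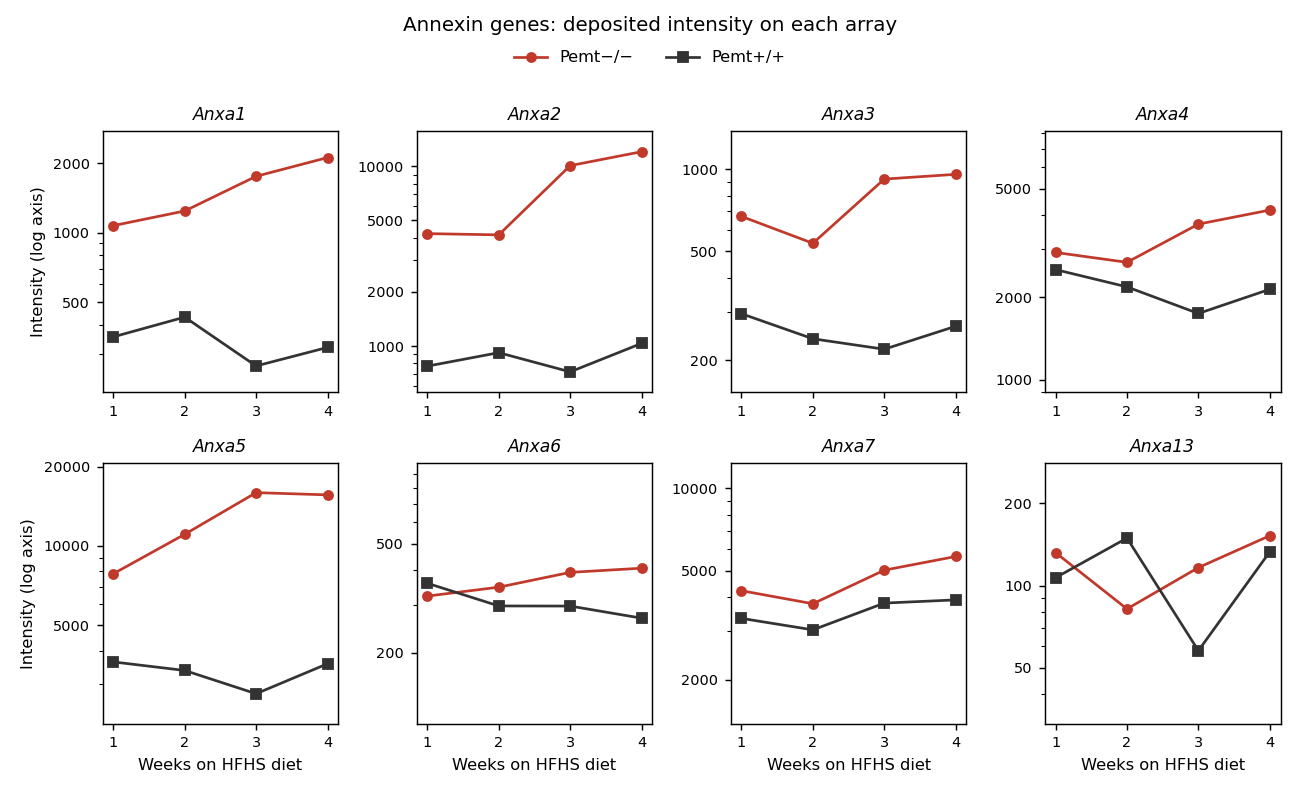
Deposited intensity (log axis, with its own range in each panel and no shared scale between genes) of 8 annexin genes by week of the HFHS diet, with 1 point per array for Pemt-/- (red circles) and Pemt+/+ (black squares). The red line lies above the black line in every week for Anxa1, Anxa2, Anxa3, Anxa4, Anxa5 and Anxa7, and the lines cross for Anxa6 and Anxa13.

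Anxa2 encodes a membrane- and actin-binding annexin that pairs with S100a10 and, at the cell surface, binds plasminogen and tissue plasminogen activator. The gene lies on chromosome 9 (69453683 to 69491792, GRCm38.p6). Its brightest probe set read 4221, 4154, 10085 and 12054 in Pemt-/- livers at weeks 1 to 4, against 773, 919, 718 and 1035 in Pemt+/+ livers. The lowest Pemt-/- array was thus above the highest Pemt+/+ array, and the Pemt-/- values fell into a lower pair at weeks 1 and 2 and a higher pair at weeks 3 and 4. The weekly ratios of Pemt-/- to Pemt+/+ were 5.46, 4.52, 14.0 and 11.6. The fitted log2 difference was 2.97 ± 0.25 (SE), a 7.84-fold higher level in Pemt-/- livers (adjusted p = 0.000539, limma).

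The other Anxa2 probe sets gave a smaller or no measurable difference. Probe set 1437692_x_at read 216, 229, 200 and 163 in Pemt-/- livers, against 82.0, 66.1, 112 and 133 in Pemt+/+ livers. The genotypes again did not overlap, but the weekly ratio ran the other way over the weeks, at 2.63, 3.47, 1.79 and 1.22. Its log2 difference was 0.96 ± 0.24 (SE; adjusted p = 0.0269, limma), and it no longer passed when week 1 (adjusted p = 0.108), week 2 (0.0673) or week 3 (0.0756) was left out. The remaining probe set, 1437691_at, read 3.89 to 11.7 in Pemt-/- livers and 1.13 to 26.8 in Pemt+/+ livers and was too dim to be tested. The size of the Anxa2 difference therefore depends on the probe set, and the mean of all 3 probe sets gave a log2 difference of 1.28. Which transcripts each probe set detects was not tested.

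Anxa1 encodes a glucocorticoid-induced annexin that dampens inflammation through formyl peptide receptors and inhibits phospholipase A2. It lies on chromosome 19 (20373434 to 20390671). Its intensity was 1074, 1242, 1754 and 2114 in Pemt-/- livers at weeks 1 to 4, against 355, 432, 266 and 320 in Pemt+/+ livers. No Pemt+/+ array reached the lowest Pemt-/- array. The weekly ratios were 3.03, 2.88, 6.60 and 6.61, and the fitted difference was 4.26-fold (log2 2.09 ± 0.22, SE; adjusted p = 0.00111, limma). A second Anxa1 probe set, 1444016_at, was too dim to be tested, with 3.24 to 27.9 in Pemt-/- livers and 3.23 to 6.23 in Pemt+/+ livers, and the mean of both probe sets gave a log2 difference of 1.23.

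Anxa5 encodes the annexin best known for binding exposed phosphatidylserine, which makes the labelled protein a stain for dying cells, and for inhibiting blood clotting. It lies on chromosome 3 (36448923 to 36475887) and had 1 probe set. That probe set read 7833, 11057, 15917 and 15608 in Pemt-/- livers at weeks 1 to 4, against 3625, 3364, 2745 and 3567 in Pemt+/+ livers. The groups were fully separate, and the weekly ratio was 2.16, 3.29, 5.80 and 4.38. The fitted difference was 3.65-fold (log2 1.87 ± 0.20, SE; adjusted p = 0.00110, limma).

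Anxa3, described in human neutrophils as a protein that aggregates granules, lies on chromosome 5 (96793385 to 96845968). Its single probe set read 671, 535, 919 and 957 in Pemt-/- livers at weeks 1 to 4, against 296, 240, 220 and 266 in Pemt+/+ livers. The genotypes did not overlap, and the ratio was 2.27, 2.23, 4.19 and 3.59 at weeks 1 to 4. The fitted difference was 2.84-fold (log2 1.51 ± 0.18, SE; adjusted p = 0.00156, limma). Anxa1, Anxa2, Anxa3 and Anxa5 passed under all 15 alternatives run, with adjusted p no higher than 0.0214 (limma or the methods' t-test). These alternatives included the omission of any 1 week. Each gene was taken by its brightest probe set, except in the alternative that used the mean of its probe sets.

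Anxa4, an annexin abundant in secretory epithelia that associates with apical membranes and vesicles, lies on chromosome 6 (86736840 to 86793634) and had 3 probe sets. The brightest read 2920, 2688, 3706 and 4172 in Pemt-/- livers at weeks 1 to 4, against 2528, 2186, 1747 and 2142 in Pemt+/+ livers. The genotypes did not overlap, although the ratio was only 1.16 and 1.23 at weeks 1 and 2 and then 2.12 and 1.95 at weeks 3 and 4. The fitted difference was 1.55-fold (log2 0.63 ± 0.16, SE; adjusted p = 0.0277, limma), and it no longer passed without week 3 (adjusted p = 0.133) or without week 4 (0.121). A second probe set, 1457658_x_at, was 1.62-fold higher (adjusted p = 0.0235) with overlapping groups of 289 to 564 in Pemt-/- livers and 159 to 371 in Pemt+/+ livers, and it did not pass without week 1 (0.0760), week 3 (0.107) or week 4 (0.0717). The last, 1424176_a_at, gave a log2 difference of 0.40 ± 0.15 (SE) that did not pass (adjusted p = 0.112), and it passed only without week 2 (0.0171).

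Anxa7, or synexin, promotes membrane fusion and binds the calcium sensor sorcin. The gene lies on chromosome 14 (20455261 to 20480133). Its brightest probe set read 4226, 3787, 5023 and 5636 in Pemt-/- livers at weeks 1 to 4, against 3348, 3040, 3808 and 3912 in Pemt+/+ livers. It was higher in Pemt-/- livers in 4 of 4 weeks, at ratios of 1.26, 1.25, 1.32 and 1.44, but the groups overlapped because both genotypes were lowest at week 2 and highest at week 4. The difference was 1.31-fold (log2 0.39 ± 0.09, SE; adjusted p = 0.0189, limma). It no longer passed without week 3 (adjusted p = 0.104) or without week 4 (0.114), nor in a fit with no replicate block (0.0647). The other Anxa7 probe sets gave log2 differences of 0.42 ± 0.14 and 0.23 ± 0.16 (SE) and did not pass (adjusted p = 0.0824 and 0.359).

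Anxa6, which carries a duplicated annexin core and takes part in late endosome and cholesterol traffic, lies on chromosome 11 (54978953 to 55033471). Its brightest probe set read 322, 347, 393 and 407 in Pemt-/- livers at weeks 1 to 4, against 359, 296, 296 and 268 in Pemt+/+ livers. The Pemt-/- value was below the Pemt+/+ value at week 1 and above it at weeks 2 to 4. The log2 difference was 0.26 ± 0.16 (SE) and did not pass the test (adjusted p = 0.300, limma). The other 3 Anxa6 probe sets had log2 differences of -0.04 to 0.23, with adjusted p of 0.409 to 0.998.

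Anxa13, an annexin of intestinal and kidney epithelium, lies on chromosome 15 (58341464 to 58389274). Its probe set read 132, 82.1, 116 and 152 in Pemt-/- livers at weeks 1 to 4, against 107, 149, 57.8 and 133 in Pemt+/+ livers. Both genotypes spanned nearly the same range, and the log2 difference was 0.13 ± 0.27 (SE; adjusted p = 0.775, limma). Omitting week 3 turned its sign, with a log2 difference of -0.10. Of the 8 annexin genes, Anxa13 had the largest SE in this fit, in which eBayes moderates each SE.

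**Figure D2:**
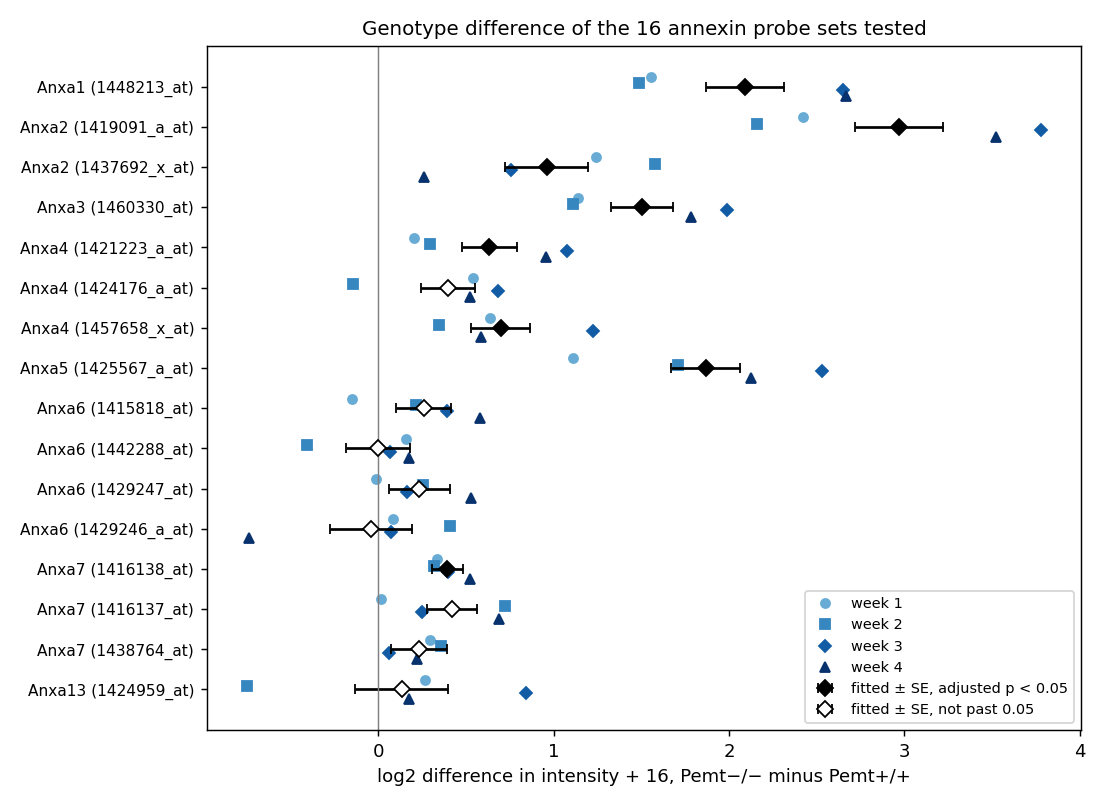
Log2 difference of intensity + 16, Pemt-/- minus Pemt+/+, for the 16 annexin probe sets tested. Blue symbols show weeks 1 to 4, diamonds with bars show the fitted difference ± SE, and filled diamonds mark the 8 probe sets with an adjusted p under 0.05, all to the right of 0.

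The second question was how the genotype ratio stood in each week, which 1 array per genotype and week allows only as a description. Over the 18 annexin probe sets, 7, 6, 7 and 6 had a ratio of 2 or more at weeks 1 to 4, and 0, 1, 0 and 0 had a ratio of 0.5 or less. These counts include the probe sets too dim to be tested. Anxa1 probe set 1444016_at had ratios of 4.47, 2.06, 1.00 and 2.19. Anxa2 probe set 1437691_at had ratios of 6.07, 0.145, 0.848 and 2.54, and so gave the only ratio of 0.5 or less. Among all 45037 probe sets, 13.3%, 13.4%, 14.4% and 15.9% reached a ratio of 2 or more in those weeks, and 14.2%, 14.9%, 15.9% and 14.6% had a ratio of 0.5 or less. A ratio of 2 or more in all 4 weeks was found for 4 annexin probe sets, those of Anxa1, Anxa2, Anxa3 and Anxa5 described above, and for 1.41% of all probe sets. The median weekly log2 difference over the 8 genes was 0.72, 0.71, 1.53 and 1.37, while that of all probe sets tested stayed between -0.01 and 0.05. This median was thus larger at weeks 3 and 4 than at weeks 1 and 2. Not every probe set followed it, since Anxa2 probe set 1437692_x_at ran the other way. The count of probe sets with a ratio of 2 or more, the dim ones included, did not rise over the weeks.

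Complete separation of the genotypes was seen for 6 of the 16 probe sets tested, each time with Pemt-/- above, and for 0 with Pemt-/- below, beside 12.8% above and 8.96% below among all probe sets tested. These were the brightest probe sets of Anxa1, Anxa2, Anxa3, Anxa4 and Anxa5, and the dimmer Anxa2 probe set.

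The change per week of diet was then fitted within each genotype. No annexin slope passed an adjusted p of 0.05 in Pemt-/- livers, where 0.104% of all probe sets did, and none passed in Pemt+/+ livers, where 0% did. The highest slope was that of Anxa2 in Pemt-/- livers, 0.58 ± 0.10 log2 units per week (SE; adjusted p = 0.0880, limma), against 0.09 ± 0.10 in Pemt+/+ livers (adjusted p = 0.999). For Anxa5 the slope was 0.35 ± 0.08 in Pemt-/- livers (adjusted p = 0.130) and -0.04 ± 0.08 in Pemt+/+ livers. For Anxa1 it was 0.34 ± 0.09 in Pemt-/- livers (adjusted p = 0.196) and -0.11 ± 0.09 in Pemt+/+ livers. Slopes lay above 0 for 14 of 16 probe sets in Pemt-/- livers and for 5 of 16 in Pemt+/+ livers, with medians over the 8 genes of 0.21 and -0.05 and medians over all probe sets of 0.01 and -0.00.

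Before adjustment, 6 of 16 probe sets had a slope with p under 0.05 in Pemt-/- livers, where 10.3% of all probe sets did, and 0 of 16 in Pemt+/+ livers, where 5.45% did. The difference in slope between the genotypes was 0.49 ± 0.15 for Anxa2, 0.45 ± 0.12 for Anxa1, 0.39 ± 0.11 for Anxa5, 0.30 ± 0.10 for Anxa4 and 0.28 ± 0.14 for Anxa3 (log2 units per week, SE). None of the 16 differences passed (lowest adjusted p = 0.595, limma; 5 with an unadjusted p under 0.05, as for 6.73% of all probe sets). A steeper change in Pemt-/- livers was therefore not established for any annexin by this fit.

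**Figure D3:**
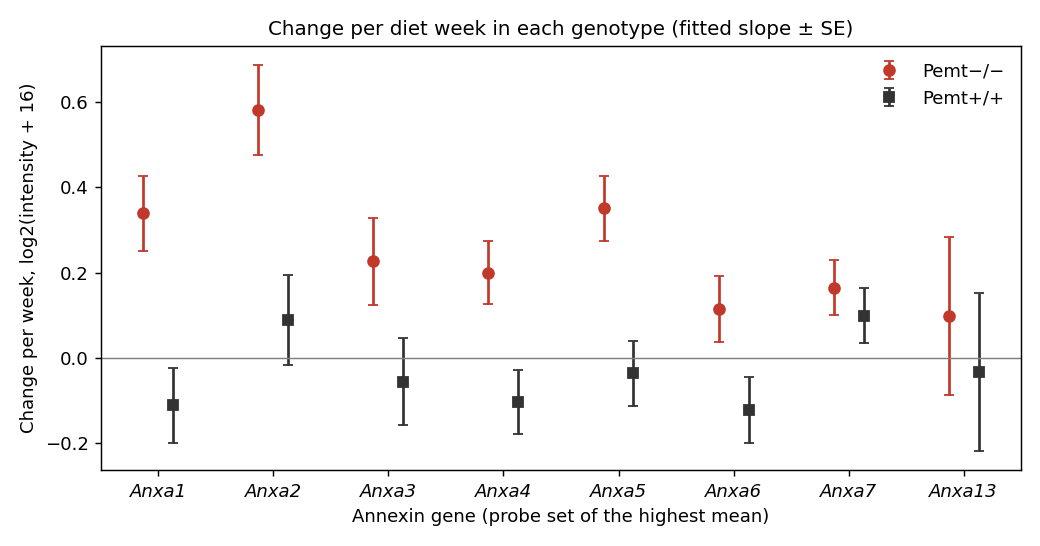
Fitted change of log2(intensity + 16) per week of diet ± SE in Pemt-/- (red circles) and Pemt+/+ (black squares) livers for 8 annexin genes, each by its probe set of the highest mean. The Pemt-/- slopes of all 8 genes are above 0 and that of Anxa2 is the highest at 0.58; no slope passed an adjusted p of 0.05.

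Across the 8 arrays, which share the genotype difference, log2 intensities of Anxa1, Anxa2, Anxa3 and Anxa5 correlated with each other at Pearson's r of 0.972 to 0.986, as a description over n = 8. Anxa4 correlated with these genes at 0.920 to 0.948, and Anxa13 correlated with the other 7 annexins at 0.150 to 0.516. The members thus ranged from a tightly matched set to one with little shared pattern. Over 12949 genes, the patterns most like that of Anxa2 over the same 8 arrays were H2-Ab1, an MHC class II chain (r = 0.998), Lgals3, a galactoside-binding lectin abundant in macrophages (0.996), Cyp4f18, a fatty acid hydroxylase (0.996), Ost4, a subunit of the oligosaccharyltransferase (0.996), Iqgap1, an actin scaffold (0.996), and Emp2, a tetraspan membrane protein (0.995). Cyp4f18 read 87.6 to 251 in Pemt-/- livers and 8.85 to 14.4 in Pemt+/+ livers, the latter below the filter intensity of 45.5. It was among the genes compared only through its Pemt-/- level, so its correlation is partly set by the filter.

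The partners of annexins were examined next, as a list of S100 proteins, surface receptors, substrates and binding proteins. Of 14 genes, S100a11 and Fpr1 are not analysed here, since no probe set was annotated to them alone. Among the 12 tested, 7 were higher in Pemt-/- livers, 1 was lower and 4 did not pass, beside 10.3% higher and 5.86% lower among all 27022 probe sets, and the median log2 difference was 0.83 against 0.02 over all probe sets. The count of 7 was 5 without week 1, without week 3 or without week 4, and 4 with eBayes without the trend or with the methods' t-test. It includes Myof, which was bright enough to be tested only because of its level in Pemt-/- livers.

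The S100 proteins are small dimeric proteins, several of which dock on annexin tails. S100a4 read 364, 243, 441 and 625 in Pemt-/- livers at weeks 1 to 4, against 49.4, 93.2, 46.5 and 67.9 in Pemt+/+ livers, and was 5.26-fold higher (adjusted p = 0.00155, limma). S100a6 read 518, 569, 822 and 1224 in Pemt-/- livers, against 190, 313, 191 and 262 in Pemt+/+ livers, and was 3.02-fold higher (adjusted p = 0.00252). For both genes the lowest Pemt-/- array was above the highest Pemt+/+ array. S100a10, the partner of Anxa2 in a heterotetramer, read 11796, 16711, 21541 and 23933 in Pemt-/- livers, against 6332, 13973, 15154 and 10258 in Pemt+/+ livers. It was higher in 4 of 4 weeks with overlapping groups, by 1.65-fold (adjusted p = 0.0128), but not past the threshold when week 1 was left out (0.0688), with no replicate block (0.0941), with eBayes without the trend (0.0689) or with the methods' t-test (0.252). Another S100a10 probe set also passed (adjusted p = 0.00289) and the dimmest did not (0.0541).

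Plasminogen and its activator bind the Anxa2 complex at the cell surface. Plat, which encodes tissue plasminogen activator, read 250, 166, 380 and 505 in Pemt-/- livers at weeks 1 to 4, against 70.3, 81.5, 57.2 and 85.6 in Pemt+/+ livers, and was 3.56-fold higher (adjusted p = 0.00321, limma). Its dimmer probe set did not pass (0.860), and the mean of its probe sets gave a log2 difference of 0.96. Plg, the plasminogen gene made by hepatocytes, read 28754, 38086, 29368 and 27736 in Pemt-/- livers, against 43361, 44252, 43896 and 42932 in Pemt+/+ livers, and was 1.42-fold lower (adjusted p = 0.00911). The activator was thus higher and the zymogen lower at the transcript level, each with no overlap between the genotypes. Among all probe sets tested, 12.8% were separate with Pemt-/- above and 8.96% with Pemt-/- below. The 9 hepatocyte markers read below were lower as well, among them Cps1 by 1.40-fold and Fgb by 1.56-fold. Whether Plg differs from these markers was not tested. Plg no longer passed when week 1 (adjusted p = 0.0504), week 3 (0.0687) or week 4 (0.0540) was left out, nor with eBayes without the trend (0.0682) or quantile normalization (log2 difference -0.19, adjusted p = 0.0811).

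Ahnak, a giant scaffold protein that binds the Anxa2 complex, read 923, 767, 1604 and 2193 in Pemt-/- livers at weeks 1 to 4, against 509, 568, 462 and 579 in Pemt+/+ livers, a 2.34-fold difference (adjusted p = 0.00970, limma). Its other probe sets did not pass (adjusted p = 0.698 and 0.504), and the mean of its probe sets gave a log2 difference of 0.26 (adjusted p = 0.433); eBayes without the trend (0.0506) and the methods' t-test (0.0823) lost the call as well. Pla2g4a, the cytosolic phospholipase A2 that Anxa1 inhibits, was 1.92-fold higher (adjusted p = 0.0148), with 183 to 266 in Pemt-/- livers and 80.7 to 138 in Pemt+/+ livers, and was lost without week 1 (0.0593), week 3 (0.0756) or week 4 (0.0697). Myof, a ferlin of membrane fusion and repair, read 38.3, 91.1, 178 and 222 in Pemt-/- livers, against 33.6, 16.9, 63.0 and 56.6 in Pemt+/+ livers, with overlapping groups. Its Pemt+/+ mean of 42.5 lay below the filter intensity of 45.5, so Myof was tested only because it was high in Pemt-/- livers, and its adjusted p of 0.0321 (2.31-fold) was 0.0668 with no filter, 0.0879 with no replicate block, and 0.0789, 0.122 and 0.143 without weeks 2, 3 and 4. The Anxa1 receptor gene Fpr2 had a log2 difference of 0.48 and did not pass (adjusted p = 0.135). Sri (sorcin), Dysf (dysferlin) and Pdcd6 (ALG-2, a calcium sensor that binds Anxa7 and Anxa11) did not pass.

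**Figure D4:**
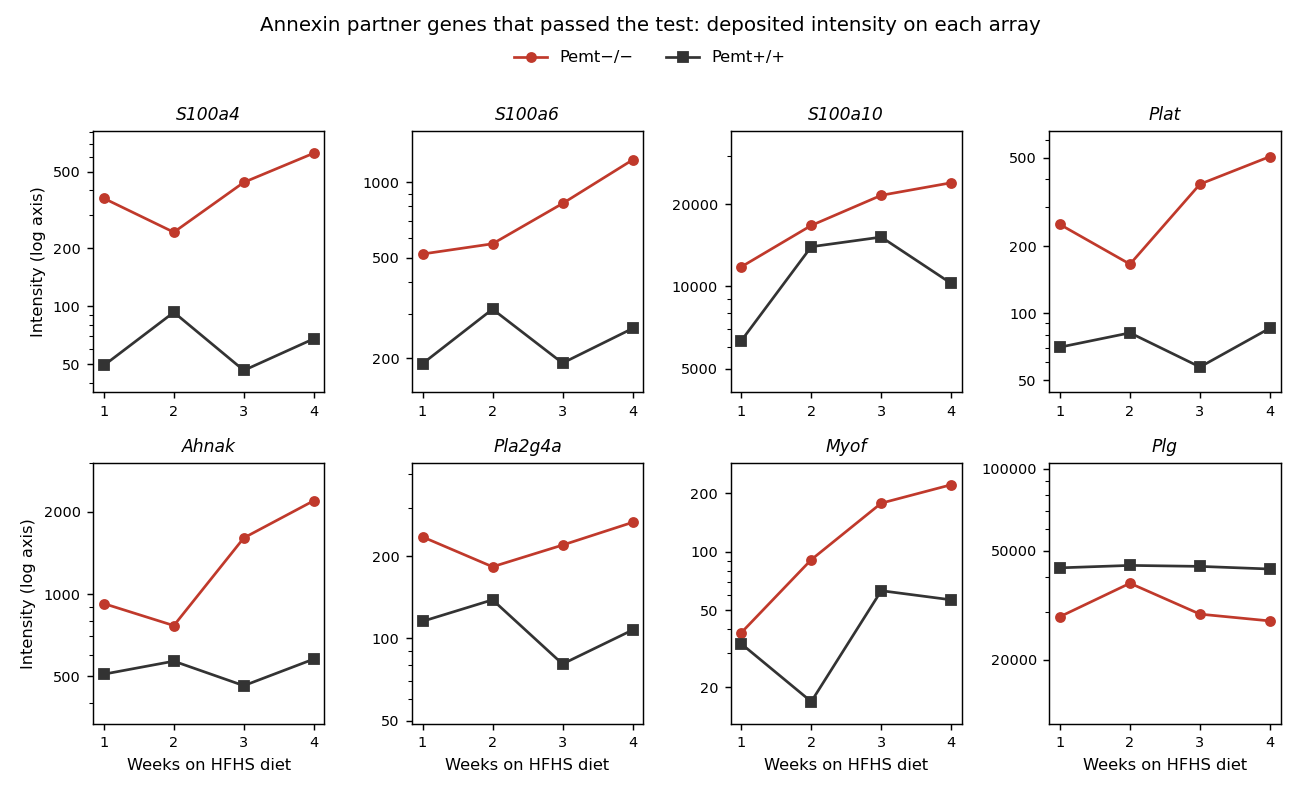
Deposited intensity (log axis, with its own range in each panel) by week of the HFHS diet for the 8 annexin partner genes that passed the test, with 1 point per array for Pemt-/- (red circles) and Pemt+/+ (black squares). The red line is above the black line in each week for S100a4, S100a6, S100a10, Plat, Ahnak, Pla2g4a and Myof, and below it for Plg.

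A wider list of membrane repair and calcium-dependent membrane binding genes was read in the same fit. Of 14 genes tested in this list, which includes Dysf, Myof and Pdcd6 again, 2 were higher, 0 were lower and 12 did not pass, beside 10.3% higher and 5.86% lower among all probe sets, with a median log2 difference of 0.05. The 2 were Myof, whose test rests on its Pemt-/- level as described above, and Ehd1, an endosomal remodelling ATPase, which was 1.56-fold higher (adjusted p = 0.0190, limma) and was lost without week 3 (0.0979) or week 4 (0.0899). The count was 0 with eBayes without the trend, with the methods' t-test and with means over probe sets. Syt1, Pdcd6ip and Cpne1 had the next smallest p and did not pass. Whether this list differs from the annexins was not tested. Among annexins outside the 9 genes, Anxa8, Anxa9 and Anxa10 were all too dim to be tested. The Anxa9 probe set read 82.8, 41.1, 115 and 145 in Pemt-/- livers at weeks 1 to 4 and 15.2, 37.8, 11.8 and 6.11 in Pemt+/+ livers, with no overlap. The brighter Anxa10 probe set read 2.05 to 4.77 in Pemt-/- livers and 2.95 to 41.1 in Pemt+/+ livers.

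Annexins are also expressed by the non-parenchymal cells of the liver, and markers of several cell types moved with the genotype. Among all 27022 probe sets tested, 10.3% were higher in Pemt-/- livers and 5.86% were lower. Of 8 macrophage markers tested, 7 were higher in Pemt-/- livers (Cd52, Ptprc, Lyz2, Cd68 and Csf1r with the smallest p) and Clec4f, a Kupffer cell lectin, did not pass; Itgam was too dim to be tested. Their summed intensity was 24071, 20665, 30368 and 32246 in Pemt-/- livers at weeks 1 to 4 and 9125 to 13123 in Pemt+/+ livers. All 9 stellate cell and fibroblast markers were higher (Dcn, Reln, Pdgfrb, Col1a1 and Col1a2 with the smallest p), with a sum of 40337 to 57764 in Pemt-/- livers and 14113 to 19854 in Pemt+/+ livers. The median log2 difference was 1.85 for the macrophage list and 1.54 for the stellate cell list, beside 1.07 for the annexins. In bulk liver, more cells of a type and more RNA per cell cannot be told apart, and the part of these cells in the annexin differences was not tested.

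Neutrophil, cholangiocyte, endothelial, lymphocyte and hepatocyte markers were read in the same way, beside the same 10.3% higher and 5.86% lower among all probe sets tested. Among 6 neutrophil markers tested, S100a8 and S100a9 were higher and Ngp, Mpo, Ltf and Elane did not pass, while Camp was too dim to be tested (sum 1117 to 1744 in Pemt-/- livers and 280 to 693 in Pemt+/+ livers). Of 5 cholangiocyte markers, Krt19, Krt7, Epcam and Sox9 did not pass, and Cldn7 was called higher but averaged 119 in Pemt-/- livers and 17.9 in Pemt+/+ livers, below the filter, so that it was tested only through its Pemt-/- level (sum 653 to 1036 in Pemt-/- livers and 449 to 669 in Pemt+/+ livers). Cftr was too dim to be tested, and Spp1 is not analysed here. Of 7 endothelial markers, Kdr, Clec4g and Ptprb were lower and Lyve1, Cdh5, Pecam1 and Stab2 did not pass (sum 4159 to 9404 in Pemt-/- livers and 7125 to 10012 in Pemt+/+ livers), and the count of 3 was 1 without week 1 or with means over probe sets, and 0 without week 3 or week 4, with no replicate block, with eBayes without the trend or with the methods' t-test. The lymphocyte markers Nkg7 and Cd79b did not pass (sum 289 to 377 in Pemt-/- livers and 196 to 224 in Pemt+/+ livers), and Cd3e, Cd3g and Cd79a were too dim to be tested. The 9 hepatocyte markers, with F11, Fgb, Hnf4a, Cps1 and Apoa1 at the smallest p, were all lower (sum 240595 to 298304 in Pemt-/- livers and 331510 to 359133 in Pemt+/+ livers), a count that was 5 without week 1, with no filter or with median centring, and 3 without week 3 or week 4, with quantile normalization, with eBayes without the trend or with the methods' t-test. The part of these lists in the annexin differences was likewise not tested.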

How the data were processed

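Liver RNA was measured on 8 Affymetrix arrays, 1 per genotype and week. The authors deposited linear intensity values for each probe set, scaled to a trimmed mean of 500 with 2% left out at each end. Affymetrix Expression Console is named in the submitters' processing notes, and neither a version nor a summarisation method is given in the sources used here. No detection calls were used. After 64 control probe sets were left out, 34945 of 45037 probe sets were annotated to 1 gene, 932 to several and 9160 to none, and 34741 matched the RefSeq table (GRCm38.p6) by Entrez identifier.

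Intensities were used as log2(intensity + 16), so fold changes of dim probe sets are understated. Probe sets above the 40th percentile of mean log2 value were kept. Genotypes were compared by limma 3.58.1 under R 4.3.3 (eBayes with a trend, week as a factor), two-sided, with Benjamini-Hochberg adjustment over 27022 probe sets and a threshold of 0.05. Slopes used week as a number within each genotype. Each genotype SE and p-value therefore rests in part on how the difference between the genotypes varied over the weeks. That variation may be technical, between mice or a real change of the difference with time on the diet. Each slope SE and p-value rests in part on the scatter of arrays around the fitted lines. In both fits, eBayes drew the variance of each probe set toward the value its trend gives at that intensity. An SE is thus not the spread of that probe set alone. The number of arrays limits the precision.

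The members, lists and tests were chosen with earlier results of these data known. All single-gene annexin probe sets are described. From each list up to 5 genes with the smallest p are named, or the whole list where it held 8 genes or fewer; further partner and marker genes were named after their values were seen. The 6 genes most like Anxa2 were taken by Pearson's r. The fits were tested on simulated data. Alternatives covered filters, normalization, centring, pseudocounts, the eBayes trend, the week block, the methods' t-test, probe set means and the omission of each week.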

Additional observations from a re-analysis of the deposited data

How the results depend on the processing

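Anxa1, Anxa2, Anxa3 and Anxa5 stayed higher in Pemt-/- livers, past the threshold, under all 15 alternatives, with adjusted p of 0.00026 to 0.0214 and log2 differences of 1.23 to 2.29 for Anxa1, 1.28 to 3.24 for Anxa2, 1.34 to 1.64 for Anxa3 and 1.65 to 2.12 for Anxa5. Over the 8 annexin genes, 106 of 119 recomputed differences kept their direction and side of the threshold, 11 calls were lost (Anxa4 and Anxa7), and 2 changed sign, both for Anxa13, which ranged from -0.10 without week 3 to 0.43 without week 2 and was -0.023 with centring on the median of the tested probe sets. The count of 8 higher probe sets was 4 with eBayes without the trend, 5 with the methods' t-test (9 unadjusted), 5 with centring on the median of the tested probe sets, and 4 to 8 when 1 week was left out, with 4 without week 3 and 5 without week 4. In the paired check, same-week deviations of the genotypes correlated at 0.105, -0.02, -0.03 and 0.113, beside -0.09 to 0.09 for different weeks. The arrays of a week thus shared little or no common deviation that the block could remove. With no replicate block 6 annexin probe sets were higher, Anxa7 (adjusted p = 0.0647, limma) and the Anxa4 probe set 1457658_x_at (0.0998) being lost. Calls over all probe sets then went to 4619, beside 4372 with the block. The median annexin difference of 1.07 became 1.51 with a filter at the 60th percentile, which left out Anxa13.

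Centring on the median of the tested probe sets was chosen after seeing the data. It moved the median difference over all probe sets to -0.14, beside 0.02 as reported, and the share of calls that were higher in Pemt-/- livers to 37.6% of 5257 calls, beside 63.8% of 4372; Anxa4 (adjusted p = 0.0554) and Anxa7 (0.119) then no longer passed. Calls over all probe sets were 2348 with eBayes without the trend, 2511 with the methods' t-test, 2051 of 12949 with means over probe sets, and 2812, 4812, 1800 and 2020 without weeks 1, 2, 3 and 4. Dim probe sets have no detection call, so a difference among them cannot be told from background.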
